A study of Mus musculus with 4 samples.

Results

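Ly6Clow monocytes were compared with Ly6Chigh monocytes of mice without miR-146a, gene by gene, as the log2 ratio of the signal on the KO Ly6Clow array over the signal on the KO Ly6Chigh array. A gene was kept when its signal reached 100 on the brighter of these arrays, which left 7263 of the 18194 genes measured, 7237 of them detected (called Present) on that brighter array. The other 10931 genes were dimmer and are not described further, except where the markers of another cell type are counted. The study compared monocyte subsets of mice with and without miR-146a to find genes that this microRNA acts on. Its 4 groups had 1 array each, and each array carried RNA from a pool of several mice.

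The KO Ly6Clow group was CD11b+ Ly6Clow spleen cells of miR-146a-/- mice of strain B6(FVB)-Mir146tm1.1Bal/J. The KO Ly6Chigh group was the CD11b+ Ly6Chigh cells of the same strain and genotype. The WT Ly6Clow and WT Ly6Chigh groups were the same sorted fractions of C57BL/6 mice, which the labels also call control littermates. All cells came from spleen, were enriched on CD11b beads, labelled with an antibody to Ly6C and then separated on a cell sorter to over 97% purity. The protocol names an RBC and an ACT red cell lysis buffer, and read in its own order it gives ACT to the KO spleens and RBC to the WT spleens, 4 min each. The labels do not say that the KO subsets came from the same pool of mice, and no age or treatment is given. The deletion removes miR-146a from every cell of the animal, so both KO subsets developed without it.

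Ly6Chigh monocytes are the classical subset, which leaves bone marrow through the chemokine receptor Ccr2, enters inflamed tissue and can become macrophages or dendritic cells. Ly6Clow monocytes descend largely from them, depend on the nuclear receptor Nr4a1, and patrol the inside of blood vessels. The microRNA miR-146a is induced by NF-kB and represses adaptors of Toll-like receptor signalling such as Irak1 and Traf6, and Relb is a published target in monocytes. MicroRNAs find targets chiefly by the seed, bases 2 to 8. The mature form absent from the KO mice is shown with its relative miR-146b-5p, which both genotypes can still make and which carries the same seed (seeds in capitals, sequences from RefSeq, GRCm38.p6).
mmu-miR-146a-5p: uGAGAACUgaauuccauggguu
mmu-miR-146b-5p: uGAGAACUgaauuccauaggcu
The first is encoded at chr11:43374435-43374456 on the minus strand and the second at chr19:46342790-46342811 on the plus strand.

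Signals are linear fluorescence values that the authors had scaled so that each array's mean, without its lowest and highest 2% of probe sets, was 150.0. The share of probe sets called Present was 46.8% on the KO Ly6Clow array and 48.1% on the KO Ly6Chigh array. The 3' over 5' ratio of the Actb control, a measure of RNA integrity, was 1.23 on the KO Ly6Clow array and 1.28 on the KO Ly6Chigh array. That of Gapdh was 0.950 on the KO Ly6Clow array and 0.905 on the KO Ly6Chigh array. The median log2 ratio of the genes kept was -0.01, with quartiles of -0.36 and 0.31. The scaling had already brought the arrays to a common mean, so a median near 0 is no separate check. With 1 array per subset the KO pair has no replicate, its ratios have no standard error and no test, and the number of arrays limits the precision.

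A gene was called when its signals differed at least 2-fold and the brighter array called it Present at 100 or more. By this rule 384 genes were higher in KO Ly6Clow monocytes (5.29% of the genes kept) and 530 were lower (7.3%), together 914 genes or 12.6%. The 6349 other genes had neither call. The called shares of all genes kept are the background of each list count below. On the dimmer array 29 of the higher genes and 71 of the lower genes were not Present, and for these the fold is given below as a bound. Among called genes that were Present on both arrays, 38 higher and 50 lower genes differed 8-fold or more, 19 higher and 14 lower genes 16-fold or more, and 3 higher and 7 lower genes 32-fold or more. The median called gene was 2.94-fold higher or 2.88-fold lower. The signal minimum cut through genes with small differences. Ddb2 and Nt5m lay just inside it at 100.0 on the brighter array with log2 ratios of 0.40 and -0.28, and Kif3c and Gadd45a lay just outside it at 99.9 with log2 ratios of 0.27 and -0.24.

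**Figure D1:**
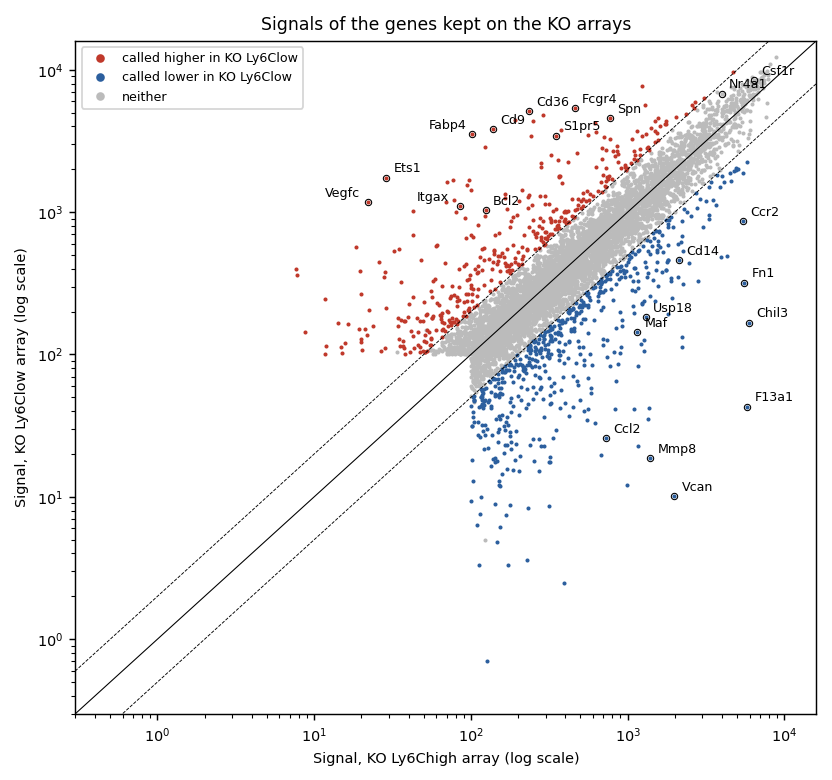
Signal of each of the 7263 genes kept on the KO Ly6Clow array (vertical axis, log scale) against that on the KO Ly6Chigh array (horizontal axis, log scale). The solid line marks equal signals and the dashed lines a 2-fold difference, and colours mark the 384 genes called higher and the 530 called lower in KO Ly6Clow. Ets1 and Vegfc stand far above the line, F13a1 and Vcan far below it, and Csf1r lies close to it.

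An error was available only by taking the KO and WT pools as the samples of each subset. A linear model with a term for genotype and a term for subset was fitted with limma to log2 signals of all 4 arrays, with 1 residual degree of freedom per gene. Over 7419 genes tested, 1666 were higher in Ly6Clow (22.5%) and 1856 were lower (25%) at a Benjamini-Hochberg adjusted p under 0.05. These shares are the background of the limma counts of lists below. This model speaks of both genotypes together, and it contains the KO pair, so its p-values are not independent of the calls above. Of the genes called in the KO pair, 379 of 384 higher and 526 of 530 lower genes passed in the same direction.

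The sorted fractions were set beside markers of their labels. These lists were chosen with earlier results of these data known, so their counts here and below are no independent check of the sort. Of 22 Ly6Clow monocyte markers measured and kept, 18 were called higher in KO Ly6Clow, 0 were called lower, and all 22 had ratios above 0 (median log2 ratio 2.73, against -0.01 for all genes kept). Spn (CD43) had a signal of 4585.0 in KO Ly6Clow cells, against 773.6 in KO Ly6Chigh cells. The integrin gene Itgax (CD11c) had 1100.4 in KO Ly6Clow cells, against 84.9 in KO Ly6Chigh cells. Treml4 had 7708.9 in KO Ly6Clow cells, against 1237.4 in KO Ly6Chigh cells. On the log2 scale these surface markers were higher by 2.57, 3.70 and 2.64.

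The lineage genes that define Ly6Clow cells in other ways differed less. Nr4a1 had a signal of 6784.6 in KO Ly6Clow cells, against 3971.3 in KO Ly6Chigh cells, a 1.71-fold difference under the 2-fold rule. It is also in the list of immediate early and heat shock genes, given below, which respond to cell isolation. The fractalkine receptor gene Cx3cr1 had 3581.9 in KO Ly6Clow cells, against 2156.9 in KO Ly6Chigh cells, or 1.66-fold. In the limma model Nr4a1 was higher in Ly6Clow by 0.76 ± 0.116 (log2, SE, adjusted p = 0.00115, 4 arrays) and Cx3cr1 by 0.59 ± 0.126 (adjusted p = 0.00617). The receptor that all monocytes carry, Csf1r, had 8458.7 in KO Ly6Clow cells, against 6425.3 in KO Ly6Chigh cells, with a limma adjusted p of 0.0617. Itgam, the CD11b gene of the bead enrichment, had 466.7 in KO Ly6Clow cells, against 675.0 in KO Ly6Chigh cells, less than a 2-fold difference.

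Of 22 Ly6Chigh monocyte markers, 12 were called lower in KO Ly6Clow and 0 higher (median log2 ratio -1.67). Ccr2 had a signal of 865.3 in KO Ly6Clow cells, against 5442.4 in KO Ly6Chigh cells, which is 6.29-fold lower. The chitinase-like gene Chil3 had 167.3 in KO Ly6Clow cells, against 5932.9 in KO Ly6Chigh cells, or 35.5-fold lower. Ms4a8a, of the family that holds CD20, had 41.2 in KO Ly6Clow cells, against 829.2 in KO Ly6Chigh cells. The largest differences of this list thus came from genes that were dim in the Ly6Clow fraction, while its other 10 members stayed under 2-fold. In the limma model 17 of the 22 were lower and 2 higher. Ly6c1 and Ly6c2, the sorting antigens, lie on a probe set with both names and were not analysed here. Neither was the deleted gene, and no value here checks which mice lacked it.

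Transcription factor genes of monocyte development split in both directions. Of 47 on the array, 40 were kept, 7 were called higher and 9 lower, with a median log2 ratio of 0.04. In the limma model 16 were higher and 16 lower. Ets1, an ETS-family factor best known in lymphocytes, had the largest higher ratio among all genes kept. Its signal was 1750.1 in KO Ly6Clow cells, against 28.9 in KO Ly6Chigh cells, which is 60.6-fold (log2 5.92). Its other 2 Present probe sets had log2 ratios of 2.68 and 6.29, so its direction was shared while its size was not. Ikzf3 (Aiolos, a lymphoid zinc finger factor) had 1011.2 in KO Ly6Clow cells, against 42.8 in KO Ly6Chigh cells.

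Tcf7l2, a transcription factor of the Wnt pathway, had a signal of 910.2 in KO Ly6Clow cells, against 91.6 in KO Ly6Chigh cells. Pou2f2 (Oct-2) had 397.0 in KO Ly6Clow cells, against 83.9 in KO Ly6Chigh cells. These 4 factors were higher by 4.73-fold to 60.6-fold in the KO pair. On the other side stood Maf, a factor of macrophage differentiation, at 144.0 in KO Ly6Clow cells, against 1153.6 in KO Ly6Chigh cells (8.01-fold lower). Batf3, known for its role in cross-presenting dendritic cells, had 54.6 in KO Ly6Clow cells, against 336.7 in KO Ly6Chigh cells. Irf4 had 101.2 in KO Ly6Clow cells, against 323.9 in KO Ly6Chigh cells. In the limma model Ets1 was higher by 5.53 ± 0.179 (log2, SE, adjusted p = 3.29e-07) and Maf was lower at -3.08 ± 0.119 (adjusted p = 6.67e-07).

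**Figure D2:**
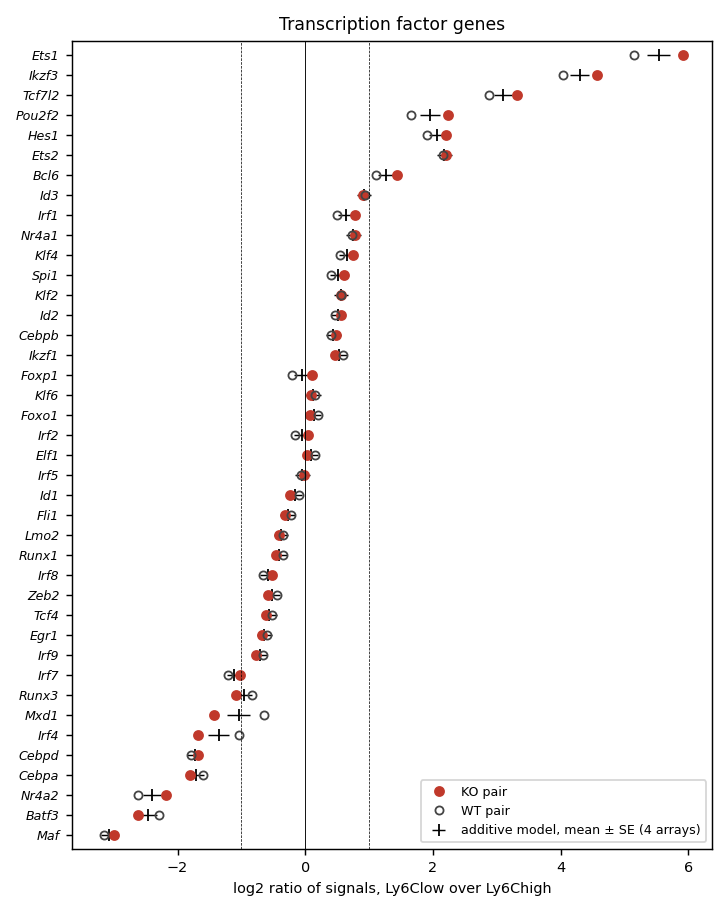
The log2 ratio of Ly6Clow over Ly6Chigh signals (horizontal axis) for each of the 40 transcription factor genes kept (rows), in the KO pair (filled), in the WT pair (open) and as the limma estimate over 4 arrays with its SE (bars). Dashed lines mark a 2-fold difference. Ets1, Ikzf3 and Tcf7l2 lie at the top, Maf and Batf3 at the bottom, and for most factors the KO and WT points lie close together.

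Receptors that guide monocytes along gradients differed in both directions. Of 26 chemoattractant receptor genes on the array only 12 were bright enough to be kept, of which 5 were called higher and 3 lower. The shares of all genes kept were 5.29% and 7.3%. S1pr5, a sphingosine-1-phosphate receptor needed for the exit of Ly6Clow monocytes from bone marrow, had a signal of 3445.8 in KO Ly6Clow cells, against 347.3 in KO Ly6Chigh cells (9.92-fold higher). The CXCL12 receptor Cxcr4 had 2924.4 in KO Ly6Clow cells, against 855.9 in KO Ly6Chigh cells. C5ar1, the receptor of the complement fragment C5a, had 143.6 in KO Ly6Clow cells, against 45.8 in KO Ly6Chigh cells. The 3 lower members were Ccr2, described above, Ccr1 and P2ry12. Ccr1, a receptor of inflammatory chemokines, had 41.8 in KO Ly6Clow cells, against 1365.8 in KO Ly6Chigh cells. P2ry12, a receptor for ADP, had 27.0 in KO Ly6Clow cells, against 135.7 in KO Ly6Chigh cells. Ccr1 thus differed by 32.7-fold, more than Ccr2.

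Of 29 adhesion genes measured, 26 were kept, 7 were called higher and 1 lower, beside 5.29% higher and 7.3% lower of all genes kept. The median log2 ratio was 0.56, against -0.01 for all genes kept, and the limma model called 15 higher and 5 lower. The tetraspanin gene Cd9 had a signal of 3836.9 in KO Ly6Clow cells, against 138.9 in KO Ly6Chigh cells (27.6-fold). Its relative Cd81 had 591.1 in KO Ly6Clow cells, against 61.1 in KO Ly6Chigh cells. Pecam1 (CD31), an adhesion molecule of endothelium and blood cells, had 244.7 in KO Ly6Clow cells, against 11.8 and Absent in KO Ly6Chigh cells, at least 8.50-fold. The collagen-binding integrin Itga1 was the 1 lower member, Absent at 9.3 in KO Ly6Clow cells, against 100.7 in KO Ly6Chigh cells. It was at least 3.37-fold lower.

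Platelets also carry Cd9, Cd36 and Pecam1. Of 8 platelet markers 3 were kept and 1 was called, Ppbp, which had a signal of 267.9 in KO Ly6Clow cells, against 93.7 in KO Ly6Chigh cells. The summed signal of the 8 was 986.1 in KO Ly6Clow cells and 515.4 in KO Ly6Chigh cells. In WT it was 632.1 in Ly6Clow cells and 443.2 in Ly6Chigh cells. The part of platelets in these differences was not tested. Fewer cells of a type and less RNA per cell cannot be told apart in pooled RNA, here or below.

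Pattern recognition genes were mostly lower in Ly6Clow cells where they differed. Of 27 measured, 22 were kept, 7 were called lower and 1, Cd36, higher, beside 7.3% and 5.29% of all genes kept. Cd14, the lipopolysaccharide co-receptor, had a signal of 461.3 in KO Ly6Clow cells, against 2141.0 in KO Ly6Chigh cells (4.64-fold lower). Clec5a, a C-type lectin that signals through an adaptor, was Absent at 8.6 in KO Ly6Clow cells, against 315.1 in KO Ly6Chigh cells, at least 10.5-fold lower. Clec4a2, an inhibitory C-type lectin, had 193.8 in KO Ly6Clow cells, against 1813.0 in KO Ly6Chigh cells. Both lectins and Cd14 were thus higher in the classical subset. The mannose receptor Mrc1 had 18.1 in KO Ly6Clow cells, against 191.4 in KO Ly6Chigh cells. The scavenger receptor Msr1 had 231.7 in KO Ly6Clow cells, against 1235.4 in KO Ly6Chigh cells. Across both genotypes limma called 9 of the 22 lower and 7 higher, beside 25% and 22.5% of all genes tested.

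Cytokine and growth factor genes included some of the largest differences of either sign. Of 42 on the array 19 were kept, 4 were called higher and 6 lower, beside 5.29% and 7.3% of all genes kept. Vegfc, a growth factor for lymphatic vessels, had a signal of 1176.0 in KO Ly6Clow cells, against 22.0 in KO Ly6Chigh cells (53.5-fold). Ltb (lymphotoxin beta) had 1691.2 in KO Ly6Clow cells, against 76.6 in KO Ly6Chigh cells. Pdgfb had 341.6 in KO Ly6Clow cells, against 58.7 in KO Ly6Chigh cells. All 3 growth or organising factors were at least 5.82-fold higher, and Tnf was higher as well, at 199.8 in KO Ly6Clow cells, against 71.8 in KO Ly6Chigh cells.

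The 6 lower members included 3 chemokine genes named by size. Ccl2, the ligand of Ccr2, was Absent at 25.9 in KO Ly6Clow cells, against 722.7 in KO Ly6Chigh cells, at least 24.2-fold lower. Cxcl10 had 29.7 in KO Ly6Clow cells, against 349.4 in KO Ly6Chigh cells. Cxcl2, which attracts neutrophils, had 204.5 in KO Ly6Clow cells, against 680.3 in KO Ly6Chigh cells. The cytokine gene Osm (oncostatin M) was lower along with these, at 112.2 in KO Ly6Clow cells, against 520.4 in KO Ly6Chigh cells. In the limma model Ccl2 was lower at -5.03 ± 0.141 and Vegfc higher at 5.56 ± 0.131 (log2, SE, adjusted p = 2.56e-07 and 1.50e-07).

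Among 36 cytokine and growth factor receptor genes kept, 5 were called higher and 6 lower, beside 5.29% and 7.3% of all genes kept. Tgfbr3 (betaglycan, a TGF-beta co-receptor) had a signal of 1628.8 in KO Ly6Clow cells, against 70.4 and Absent in KO Ly6Chigh cells, at least 23.1-fold. Pdgfrb had 173.7 in KO Ly6Clow cells, against 35.6 in KO Ly6Chigh cells, so the receptor gene was higher in the same fraction as its ligand gene Pdgfb. Met, the receptor of hepatocyte growth factor, had 19.8 in KO Ly6Clow cells, against 680.6 in KO Ly6Chigh cells. Notch1 had 173.4 in KO Ly6Clow cells, against 609.4 in KO Ly6Chigh cells. Met was 34.4-fold and Notch1 3.51-fold lower. Flt3, a progenitor and dendritic cell receptor, was Absent at 21.6 in KO Ly6Clow cells, against 120.5 in KO Ly6Chigh cells.

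The type I interferon response differed in nearly every gene. These are antiviral genes that interferon induces, and many are also expressed at a basal level. All 27 members on the array were kept, 20 were called lower in KO Ly6Clow and 0 higher, beside 7.3% and 5.29% of all genes kept. The log2 ratio was below 0 for 26 of the 27, and the median was -1.30. Usp18, a brake on interferon receptor signalling, had the largest ratio, with a signal of 182.2 in KO Ly6Clow cells, against 1310.7 in KO Ly6Chigh cells (7.19-fold lower). Ifit2, which binds viral RNA, had 158.9 in KO Ly6Clow cells, against 921.8 in KO Ly6Chigh cells. Rsad2 (viperin) had 302.7 in KO Ly6Clow cells, against 1565.6 in KO Ly6Chigh cells.

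The other members named by size were alike. Oasl2 had a signal of 196.9 in KO Ly6Clow cells, against 1104.5 in KO Ly6Chigh cells. Ifit1 had 69.7 in KO Ly6Clow cells, against 388.6 in KO Ly6Chigh cells. Ifit3 had 219.2 in KO Ly6Clow cells, against 1086.4 in KO Ly6Chigh cells. All 6 genes were still Present in KO Ly6Clow cells. The 1 member above 0 was Ifitm3 (chosen after its value was seen), at 8019.8 in KO Ly6Clow cells, against 7087.0 in KO Ly6Chigh cells.

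The WT pair gave a like count. There 19 of the 27 were called lower, beside 7.25% of all genes, and 0 higher, beside 5.31%. The WT median was -1.31. The limma model called 26 of the 27 lower and 0 higher, with Usp18 at -2.93 ± 0.119 (log2, SE, adjusted p = 8.06e-07). Bst2, which is in this list and is also a marker of plasmacytoid dendritic cells, had 53.4 in KO Ly6Clow cells, against 262.0 in KO Ly6Chigh cells. The plasmacytoid markers Siglech and Ccr9 were Absent on both KO arrays, and the summed signal of the 9 markers was 868.7 in KO Ly6Clow cells and 1361.4 in KO Ly6Chigh cells. Most of both sums was Tcf4, at 609.9 in KO Ly6Clow cells, against 929.7 in KO Ly6Chigh cells. Dimmer markers went both ways, with Ly6d and Spib higher in KO Ly6Clow cells and Klk1 lower.

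**Figure D3:**
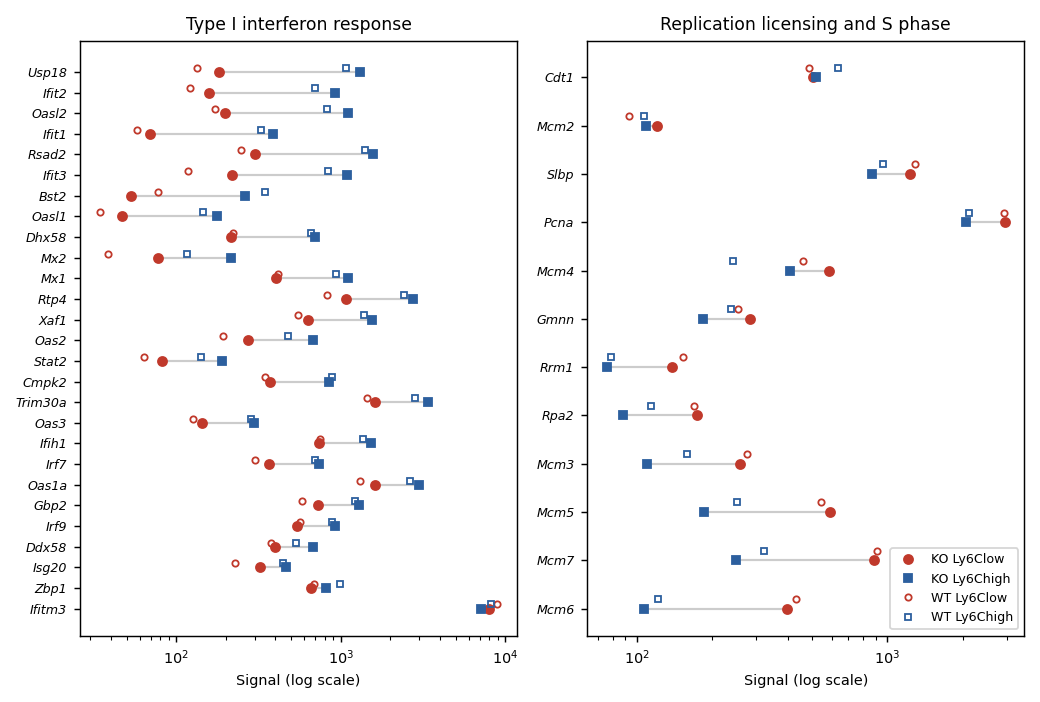
Signals (horizontal axes, log scale) of the 27 interferon response genes (left) and the 12 replication genes kept (right), with KO Ly6Clow as filled circles, KO Ly6Chigh as filled squares and the WT arrays as small open symbols just above them. The circles lie left of the squares for 26 of 27 interferon genes and right of them for 11 of 12 replication genes.

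Interferon factors bind an element with the letters GAAANNGAA (N is any base), a motif chosen after the ratios were seen. RefSeq promoters (250 bases before to 50 after the start, GRCm38.p6) were at hand for 14 of the 20 interferon genes called lower. Of their 16 promoters 9, or 56.3%, held the motif on either strand. Among all 32851 promoters 8.56% held it, among those of genes kept 7.59%, and among those of other genes called lower 10.7%. Among promoters of genes called higher the share was close to this last, at 10.1%. The list was drawn up from known interferon targets, so such matches were built into it. A match shows only that the letters are present. Of the members with the largest ratios, Ifit2 and Oasl2 did not hold it and Usp18 had no promoter at hand. For 5 genes that held it, 50 bases before the start are shown on the gene's own strand, with every match in capitals (as written or as its reverse complement). Rsad2 has 1 match in the window and the other genes 2 each, which overlap in Bst2 and Oas3.
Ifit1, chr19:34640785-34640834, plus strand: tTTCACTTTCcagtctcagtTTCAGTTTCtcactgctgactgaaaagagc
Rsad2, chr12:26456542-26456591, minus strand: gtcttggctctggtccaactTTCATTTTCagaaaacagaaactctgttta
Ifit3, chr19:34583407-34583456, plus strand: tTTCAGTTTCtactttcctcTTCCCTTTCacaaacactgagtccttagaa
Bst2, chr8:71537567-71537616, minus strand: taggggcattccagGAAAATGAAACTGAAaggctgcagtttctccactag
Oas3, chr5:120777699-120777748, minus strand: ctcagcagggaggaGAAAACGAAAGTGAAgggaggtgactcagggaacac
Oas3, the synthase of an RNase L activator, was among the weaker called members, with 142.9 in KO Ly6Clow cells, against 296.0 in KO Ly6Chigh cells.

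Genes of NF-kB signalling, the pathway that miR-146a restrains, showed no common direction. All 26 on the array were kept, 3 were called higher and 5 lower, beside 5.29% and 7.3% of all genes kept. The median log2 ratio was 0.25. Traf1, an NF-kB target and adaptor, had a signal of 708.2 in KO Ly6Clow cells, against 151.4 in KO Ly6Chigh cells. Ptgs2 (cyclooxygenase-2) had 17.5 in KO Ly6Clow cells, against 316.4 in KO Ly6Chigh cells, 18.1-fold lower. Ikbke, a kinase shared with the interferon pathway, had 78.6 in KO Ly6Clow cells, against 221.6 in KO Ly6Chigh cells. By limma 8 were higher and 10 lower, beside 22.5% and 25% of all genes tested.

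Of 18 published miR-146a targets on the array, 15 were kept, 2 were called higher and 0 lower, a share near the 12.6% called among all genes kept. Their median log2 ratio was 0.02. The adaptor kinase gene Irak1 had a signal of 1423.7 in KO Ly6Clow cells, against 1410.1 in KO Ly6Chigh cells. Traf6 had 153.3 in KO Ly6Clow cells, against 160.6 in KO Ly6Chigh cells. Relb had 222.5 in KO Ly6Clow cells, against 170.2 in KO Ly6Chigh cells. None of these 3 met the 2-fold rule, and their limma adjusted p-values for subset were 0.646, 0.232 and 0.109. One other Present probe set of Traf6 had a log2 ratio of 1.05, while its chosen, brighter set had -0.07. The called members were Cxcr4, given above, and Card10, a scaffold upstream of NF-kB, at 289.7 in KO Ly6Clow cells, against 111.1 in KO Ly6Chigh cells.

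Genes of MHC class II presentation were lower in part. Of 11 kept, 5 were called lower and 1 higher, with a median log2 ratio of -0.97. Ciita, the master activator of the class II genes, had a signal of 23.2 in KO Ly6Clow cells, against 165.7 in KO Ly6Chigh cells (7.14-fold lower). Its other Present probe set had a log2 ratio of -1.34, against -2.84 for the chosen set. The peptide exchange subunit H2-DMa had 463.6 in KO Ly6Clow cells, against 1807.8 in KO Ly6Chigh cells. The class II chain H2-Ab1 had 443.0 in KO Ly6Clow cells, against 1544.7 in KO Ly6Chigh cells. H2-Ob, a subunit of the inhibitor of H2-DM found mainly in B cells, ran the other way, at 146.5 in KO Ly6Clow cells, against 41.4 in KO Ly6Chigh cells. By limma 7 of the 11 were lower and 1 higher.

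Some dendritic cell markers differed in the same direction. Of 11 conventional dendritic cell markers, 4 were kept and 3 were called lower, among them Cd209a, at 36.6 in KO Ly6Clow cells, against 291.6 in KO Ly6Chigh cells. The summed signal of the 11 was 423.1 in KO Ly6Clow cells and 1081.9 in KO Ly6Chigh cells. In WT it was 350.3 in Ly6Clow cells and 972.4 in Ly6Chigh cells. The defining genes Zbtb46, Xcr1 and Itgae were Absent on both KO arrays. Whether cells of this kind took part in the class II difference was not tested.

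Matrix and coagulation genes included Vcan and F13a1, which had some of the lowest ratios. Of 35 on the array 19 were kept, of which 13 were called lower and 2 higher, with a median log2 ratio of -1.36. Vcan (versican, a matrix proteoglycan) was Absent at 10.1 in KO Ly6Clow cells, against 1989.1 in KO Ly6Chigh cells, at least 66.5-fold lower. F13a1, the A chain of coagulation factor XIII, had a signal of 42.9 in KO Ly6Clow cells, against 5796.1 in KO Ly6Chigh cells, or 135-fold lower. Fn1 (fibronectin) had 318.4 in KO Ly6Clow cells, against 5527.0 in KO Ly6Chigh cells. All 3 were among the 15 largest lower ratios at a signal of at least 500. Thbs1 (thrombospondin-1) had 35.4 in KO Ly6Clow cells, against 1351.4 in KO Ly6Chigh cells. Olfm1, a secreted olfactomedin protein, had 33.1 in KO Ly6Clow cells, against 620.5 in KO Ly6Chigh cells. The limma model called 15 of the 19 lower and 2 higher, with F13a1 at -7.25 ± 0.13 (log2, SE, adjusted p = 6.78e-08).

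Some neutrophil genes were lower as well. Mmp8, a collagenase stored in neutrophil granules, had a signal of 18.6 in KO Ly6Clow cells, against 1393.8 in KO Ly6Chigh cells. It is in the list of Ly6Chigh monocyte markers as well. Cd177, a surface protein of neutrophils, was Absent at 22.8 in KO Ly6Clow cells, against 1165.5 in KO Ly6Chigh cells, at least 39.0-fold lower. Prtn3 (proteinase 3) was Absent at 12.1 in KO Ly6Clow cells, against 151.5 in KO Ly6Chigh cells. Of 15 neutrophil markers, which do not include Cd177, 6 were kept, 3 were called lower and 0 higher. The kept S100a8, S100a9 and Csf3r stayed under 2-fold. The summed signal of the 15 was 1619.0 in KO Ly6Clow cells and 4031.3 in KO Ly6Chigh cells, with Mmp8 included. In WT it was 2001.6 in Ly6Clow cells and 5483.1 in Ly6Chigh cells. The secondary granule genes Camp, Ltf and Ngp were Absent on both KO arrays, as were Elane and Mpo. Lcn2, a further granule gene, was Present on both and called lower, at 19.2 in KO Ly6Clow cells, against 205.8 in KO Ly6Chigh cells. The dimmer Ctsg was Absent at 1.5 in KO Ly6Clow cells and Present at 21.2 in KO Ly6Chigh cells. The part of neutrophils in these differences was not tested.

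Other genes among the 15 largest lower ratios at a signal of at least 500 had more varied roles. Atrnl1, which encodes an attractin-like membrane protein, had a signal of 12.2 in KO Ly6Clow cells, against 995.1 in KO Ly6Chigh cells. Capg, which caps actin filaments, had 113.6 in KO Ly6Clow cells, against 2212.4 in KO Ly6Chigh cells. Cd93, a lectin-like membrane protein once named as a C1q receptor, had 41.7 in KO Ly6Clow cells, against 1100.3 in KO Ly6Chigh cells. These genes differed by 19.5-fold to 81.6-fold. The single other Present probe set of Capg had a log2 ratio of -0.59, against -4.28 for the chosen set, and the other 3 of Cd93 lay between -6.63 and -1.39, against -4.72.

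Fc receptor genes, which couple antibody to phagocytosis, divided by receptor. Of 13 on the array 8 were kept, 3 were called higher and 1 lower, beside 5.29% and 7.3% of all genes kept. Fcgr4 had a signal of 5390.2 in KO Ly6Clow cells, against 460.4 in KO Ly6Chigh cells (11.7-fold higher). Fcgrt, the neonatal Fc receptor that recycles IgG, had 859.9 in KO Ly6Clow cells, against 288.5 in KO Ly6Chigh cells. Fcgr1, the high-affinity IgG receptor, had 448.7 in KO Ly6Clow cells, against 1772.1 in KO Ly6Chigh cells. Thus Fcgr4 and Fcgr1 stood on opposite sides, and the limma model gave 3.16 ± 0.179 and -1.88 ± 0.121 (log2, SE, adjusted p = 4.34e-06 and 9.07e-06).

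Complement genes were few among those kept, with 2 of 8 called higher (C5ar1 and Itgax, above) and 3 lower. Cfb, factor B of the alternative pathway, had a signal of 41.9 in KO Ly6Clow cells, against 225.1 in KO Ly6Chigh cells. Cfp (properdin), which stabilises the convertase that factor B forms, had 165.9 in KO Ly6Clow cells, against 501.5 in KO Ly6Chigh cells. The other Present probe set of Cfp had a log2 ratio of -0.07, so this call rests on 1 probe set.

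Lipid handling was a group with some of the strongest Ly6Clow genes. Of 28 kept, 8 were called higher and 3 lower, beside 5.29% and 7.3% of all genes kept. The median log2 ratio was 0.38. Fabp4, a fatty acid carrier of adipocytes and macrophages, had a signal of 3529.8 in KO Ly6Clow cells, against 101.7 in KO Ly6Chigh cells (34.7-fold). The scavenger receptor and fatty acid transporter Cd36 had 5119.3 in KO Ly6Clow cells, against 234.1 in KO Ly6Chigh cells. Pparg, the nuclear receptor that controls both genes in macrophages, had 1542.3 in KO Ly6Clow cells, against 94.1 in KO Ly6Chigh cells. The factor and these known targets were thus higher in the same fraction. G0s2, an inhibitor of triglyceride lipase, had 570.2 in KO Ly6Clow cells, against 18.5 in KO Ly6Chigh cells. Scd1, a fatty acid desaturase, had 151.3 in KO Ly6Clow cells, against 21.0 and Marginal in KO Ly6Chigh cells, at least 5.25-fold. Msr1, above, was lower, and the limma model called 13 of the 28 higher and 9 lower.

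Cholesterol synthesis had 0 of 17 genes called in either direction in the KO pair, with a median log2 ratio of 0.12. In the limma model 3 were higher and 2 lower. Of 18 glycolysis genes kept, 2 were called higher and 1 lower, beside 5.29% and 7.3% of all genes kept. Eno3, the muscle enolase, had a signal of 3756.1 in KO Ly6Clow cells, against 373.8 in KO Ly6Chigh cells, a log2 ratio of 3.33. Ldhb, a lactate dehydrogenase chain, had 94.6 in KO Ly6Clow cells, against 315.0 in KO Ly6Chigh cells. Pfkl had 113.6 in KO Ly6Clow cells, against 47.2 in KO Ly6Chigh cells, but its other 2 Present probe sets had log2 ratios of -0.08 and 0.14.

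Enzymes of lipid mediators also parted. Of 12 kept, 2 were called higher and 2 lower. Alox5, the enzyme that begins leukotriene synthesis, had a signal of 430.1 in KO Ly6Clow cells, against 92.5 in KO Ly6Chigh cells. Hpgd, which degrades prostaglandins, had 5644.1 in KO Ly6Clow cells, against 2567.2 in KO Ly6Chigh cells. The other Present probe set of Hpgd had a log2 ratio of 0.76, under the 2-fold rule, against 1.14 for the chosen set. Tbxas1, the thromboxane synthase, had 37.8 and was Marginal in KO Ly6Clow cells, against 202.2 in KO Ly6Chigh cells. The prostaglandin-forming Ptgs2 was lower, as given above, in the fraction where the prostaglandin-degrading Hpgd was higher.

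Genes of replication licensing, which load the MCM helicase onto DNA before S phase, differed in part. Of 28 on the array only 12 were kept, of which 4 were called higher and 0 lower, beside 5.29% higher and 7.3% lower of all genes kept. The 12 had a median log2 ratio of 0.75. The helicase subunit Mcm6 had a signal of 397.6 in KO Ly6Clow cells, against 106.9 in KO Ly6Chigh cells. Mcm7 had 884.1 in KO Ly6Clow cells, against 247.9 in KO Ly6Chigh cells. Mcm5 had 592.1 in KO Ly6Clow cells, against 184.9 in KO Ly6Chigh cells. Mcm3 completed the 4, at 258.9 in KO Ly6Clow cells, against 109.6 in KO Ly6Chigh cells, but its other 3 Present probe sets had log2 ratios of 0.25 to 0.86, against 1.24 for the chosen set, and it was not called in WT. Their differences were 2.36-fold to 3.72-fold. The limma model called 9 of the 12 higher and 0 lower, with Mcm6 at 1.87 ± 0.116 (log2, SE, adjusted p = 7.06e-06).

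Mitosis genes could hardly be compared, since 22 of 25 stayed under the signal of 100 on both KO arrays. Of the 3 kept, 2 had ratios above 0 and 1 below. Smc2, a condensin subunit, was the only one called, at 335.0 in KO Ly6Clow cells, against 94.7 in KO Ly6Chigh cells. Among 13 D cyclin and CDK inhibitor genes kept, 1 was called higher and 0 lower, beside 5.29% and 7.3% of all genes kept. That gene was Ccnd2 (cyclin D2), which drives entry into the cycle, at 444.8 in KO Ly6Clow cells, against 26.1 in KO Ly6Chigh cells (17.0-fold).

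The E2F factors that switch on replication genes bind the letters TTTCGCGC. Of 11 promoters at hand for 10 of the 12 replication genes, 3 or 27.3% held them on either strand, beside 0.323% of all promoters and 0.663% of those of genes kept. The 3 belonged to Mcm5, Mcm6 and Mcm7, which were among the 4 genes called, and only 1 of the 2 Mcm7 promoters held the letters. Since E2F factors are known to act on replication genes, such matches were built into the list. A match shows only that the letters are present. For Mcm6 and Mcm5 the 50 bases that end before the start are shown. The motif is in capitals (as written for Mcm5 and as its reverse complement for Mcm6).
Mcm6, chr1:128359782-128359831, minus strand: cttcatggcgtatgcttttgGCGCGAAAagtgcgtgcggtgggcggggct
Mcm5, chr8:75109336-75109385, plus strand: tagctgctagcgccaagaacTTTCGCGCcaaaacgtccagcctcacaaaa
Further motifs were counted on either strand over all called genes. The ETS letters GGAAGTG stood in 12.8% of 414 promoters of genes called higher and 11.8% of 551 promoters of genes called lower, beside 16.8% of promoters of genes kept. The E2F letters stood in 1.69% of promoters of genes called higher and 0.363% of those called lower, beside 0.663%. The AP-1 letters TGACTCA stood in 4.35% of promoters of genes called higher and 6.35% of those called lower, beside 3.52%. The CREB and ATF letters TGACGTCA stood in 1.69% of promoters of genes called higher and 1.45% of those called lower, beside 3.16%. The median GC content was 60.3% in both called sets, beside 61.3% among genes kept, and the median number of CpG sites was 18 for genes called higher and 17 for genes called lower, beside 22.

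Of 18 apoptosis regulators kept, 1 was called higher and 3 lower, beside 5.29% higher and 7.3% lower of all genes kept. The anti-apoptotic Bcl2 had a signal of 1028.8 in KO Ly6Clow cells, against 124.7 in KO Ly6Chigh cells (8.25-fold higher). Bcl2l11 (Bim), the pro-apoptotic protein that Bcl2 binds, had 239.7 in KO Ly6Clow cells, against 805.1 in KO Ly6Chigh cells. Bad, Marginal in KO Ly6Clow cells, was at least 2.16-fold lower and the caspase gene Casp6 2.10-fold lower, and with an offset of 32 their log2 ratios of -0.92 and -0.96 were under the 2-fold rule. The limma model gave 3.05 ± 0.115 for Bcl2 and -1.70 ± 0.117 for Bcl2l11 (log2, SE, adjusted p = 6.19e-07 and 1.30e-05).

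Several further genes among the 15 largest higher ratios at a signal of at least 500 belong to no group above. Cd274 (PD-L1), a ligand that restrains T cells, had a signal of 1670.7 in KO Ly6Clow cells, against 97.9 in KO Ly6Chigh cells. Cd83, a marker of activated antigen-presenting cells, had 2866.3 in KO Ly6Clow cells, against 123.3 in KO Ly6Chigh cells. Dusp16, a phosphatase of JNK and p38, had 4450.7 in KO Ly6Clow cells, against 191.8 in KO Ly6Chigh cells. These signalling and surface genes were 17.1-fold to 23.2-fold higher. The transglutaminase Tgm2 had 4782.5 in KO Ly6Clow cells, against 286.6 in KO Ly6Chigh cells. Slc12a2, a sodium, potassium and chloride cotransporter, had 4395.7 in KO Ly6Clow cells, against 250.3 in KO Ly6Chigh cells. Serpinb6a, an intracellular protease inhibitor, had 1180.9 in KO Ly6Clow cells, against 69.3 in KO Ly6Chigh cells.

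**Figure D4:**
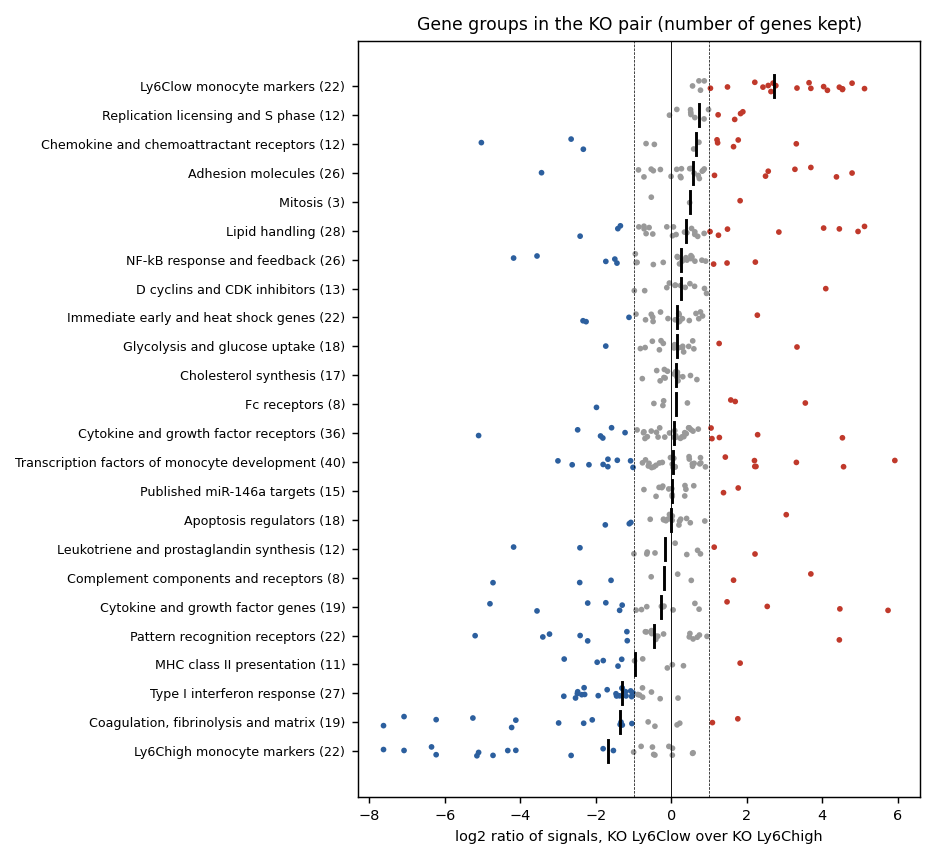
The log2 ratio of KO Ly6Clow over KO Ly6Chigh signals (horizontal axis) of every gene kept in each group (rows, with the number kept), as points coloured by call, with the group's median as a black bar. Dashed lines mark a 2-fold difference. Medians run from 2.73 for the Ly6Clow markers to -1.67 for the Ly6Chigh markers, and nearly all interferon points lie left of 0.

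Some lymphocyte genes were among those called. Of 11 B cell markers 4 were kept, 2 were called higher and 0 lower, and the limma model called all 4 kept higher. Cd22, an inhibitory lectin of B cells, had a signal of 551.1 in KO Ly6Clow cells, against 34.6 in KO Ly6Chigh cells. Ms4a1 (CD20) had 184.4 in KO Ly6Clow cells, against 39.4 in KO Ly6Chigh cells. The summed signal of the 11 was 1284.7 in KO Ly6Clow cells and 461.0 in KO Ly6Chigh cells. In WT it was 1596.7 in Ly6Clow cells and 574.0 in Ly6Chigh cells. Cd79a, Pax5, Ebf1 and Blnk were Absent on both KO arrays, with signals of 27.7 at most. In WT Ly6Clow cells Cd79a and Blnk were Present, at 24.4 and 66.3. Cd79b, kept and not called, was at 219.2 in KO Ly6Clow cells, against 129.6 in KO Ly6Chigh cells. Fcer2a was Present at 25.2 in KO Ly6Clow cells and Absent at 12.6 in KO Ly6Chigh cells. Ltb, Ikzf3, Pou2f2, H2-Ob and Fcrl1, which B cells also express, were higher in KO Ly6Clow cells, and the part of B cells in them was not tested.

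Several other lineages left little signal. All 11 T cell markers stayed under 100 on both KO arrays, with summed signals of 80.3 in KO Ly6Clow cells and 111.8 in KO Ly6Chigh cells. The 11 NK cell markers summed to 114.2 in KO Ly6Clow cells and 288.5 in KO Ly6Chigh cells, and Klrk1 (NKG2D) was the 1 called, Absent at 24.4 in KO Ly6Clow cells, against 149.5 in KO Ly6Chigh cells. Markers of eosinophils, basophils and mast cells summed to 101.9 in KO Ly6Clow cells and 76.9 in KO Ly6Chigh cells over 12 genes. Of 8 erythroid markers Tfrc, the transferrin receptor, was the 1 kept, at 180.8 in KO Ly6Clow cells, against 56.8 in KO Ly6Chigh cells. Red pulp macrophage markers were mixed, with 2 of 5 kept called higher and 1 lower. Those higher were Treml4, given above as a Ly6Clow monocyte marker, and Spic. Spic had 201.2 in KO Ly6Clow cells, against 70.3 in KO Ly6Chigh cells. The receptor kinase gene Axl was lower, at 23.2 and Absent in KO Ly6Clow cells, against 169.8 in KO Ly6Chigh cells. The list summed to 11315.2 in KO Ly6Clow cells and 4183.0 in KO Ly6Chigh cells, with Treml4 the largest part in KO Ly6Clow. Of 3 plasma cell markers kept, Irf4 was the 1 called. The plasma cell list summed to 5981.7 in KO Ly6Clow cells and 6108.4 in KO Ly6Chigh cells. Most of this was Xbp1, at 5704.8 in KO Ly6Clow cells and 5528.4 in KO Ly6Chigh cells.

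Immediate early and heat shock genes, which respond to cell isolation, gave 1 higher and 3 lower of 22 kept, with a median log2 ratio of 0.15. The shares of all genes kept were 5.29% and 7.3%. Dusp2 had a signal of 1770.0 in KO Ly6Clow cells, against 364.8 in KO Ly6Chigh cells. Fosb had 49.0 in KO Ly6Clow cells, against 247.7 in KO Ly6Chigh cells. Of these genes the limma model called 7 higher and 8 lower, beside 22.5% and 25% of all genes tested.

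The WT pair shares no array with the KO pair and gave the same contrast in other mice. In WT, 385 of 7256 genes kept were called higher in Ly6Clow (5.31%) and 526 lower (7.25%). Of the genes called higher in KO, 288 were called higher in WT, which is 75.0% of the KO calls and 74.8% of the WT calls. Of those called lower in KO, 415 were called lower in WT, which is 78.3% of the KO calls and 78.9% of the WT calls. The sign was shared by 380 of 384 higher and 528 of 530 lower genes. Across the 7100 genes kept in both pairs the log2 ratios had a Pearson r of 0.939 and a Spearman rho of 0.865, given as a description since genes are not independent replicates. The median size of the difference between KO and WT ratios was 0.17, its 95th percentile was 0.59, and 64 genes reached 1. The lower genes had a median log2 ratio of -1.53 in KO and -1.57 in WT, and the higher genes 1.56 in KO and 1.37 in WT. Both sets were chosen by the 2-fold rule in KO, which holds the KO medians away from 0 but not the WT medians. The medians of the genotypes are thus not on an equal footing.

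A few bright genes had unequal ratios in the genotypes, none of which could be tested with 1 array per group. Chil3 was lower in Ly6Clow cells of both genotypes but more so in KO, with log2 ratios of -5.15 in KO and -2.31 in WT. Its signal was 167.3 in KO Ly6Clow cells, against 5932.9 in KO Ly6Chigh cells, and 1603.7 in WT Ly6Clow cells, against 7929.9 in WT Ly6Chigh cells. The signals of the KO and WT Ly6Clow arrays were further apart than those of the Ly6Chigh arrays. Retnla (Relm-alpha), a secreted protein of alternatively activated macrophages, had 506.8 in KO Ly6Clow cells, against 139.8 in KO Ly6Chigh cells, and 172.7 in WT Ly6Clow cells, against 142.6 in WT Ly6Chigh cells. Ctla2a, a cathepsin inhibitor-like gene, had 533.8 in KO Ly6Clow cells, against 140.1 in KO Ly6Chigh cells, and 145.9 in WT Ly6Clow cells, against 107.3 in WT Ly6Chigh cells. Retnla and Ctla2a were called in KO and not in WT, where their log2 ratios were 0.28 and 0.44.

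Gene Clec2d, which encodes a ligand of NK cell receptors, was the 1 gene called in opposite directions. Its signal was 594.9 in KO Ly6Clow cells, against 296.3 in KO Ly6Chigh cells, and 477.1 in WT Ly6Clow cells, against 993.9 in WT Ly6Chigh cells. The inhibitory collagen receptor Lair1 was higher by 2.99 in KO and 1.83 in WT on the log2 scale, and Vcan was lower at -7.62 in KO and -9.43 in WT. For Vcan both Ly6Clow signals, 10.1 in KO and 1.8 in WT, lay at the floor of the array. Ccnd2, Jade2 and Gcnt2 were less far above 0 in KO, with log2 ratios of 4.09, 4.29 and 1.08 in KO, against 5.19, 5.43 and 2.25 in WT. In WT Ly6Chigh cells Ccnd2 was Marginal at 17.3 and Jade2 Absent at 20.7, so their WT folds are bounds, at least 25.6 and 36.2. Their KO Ly6Chigh signals of 26.1 and 19.6 also lay near the floor. The other 6 Present probe sets of Gcnt2 had KO log2 ratios between -0.66 and 2.35. Rgs18, a regulator of G protein signalling, was lower at -2.41 in KO and -1.36 in WT.

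**Figure D5:**
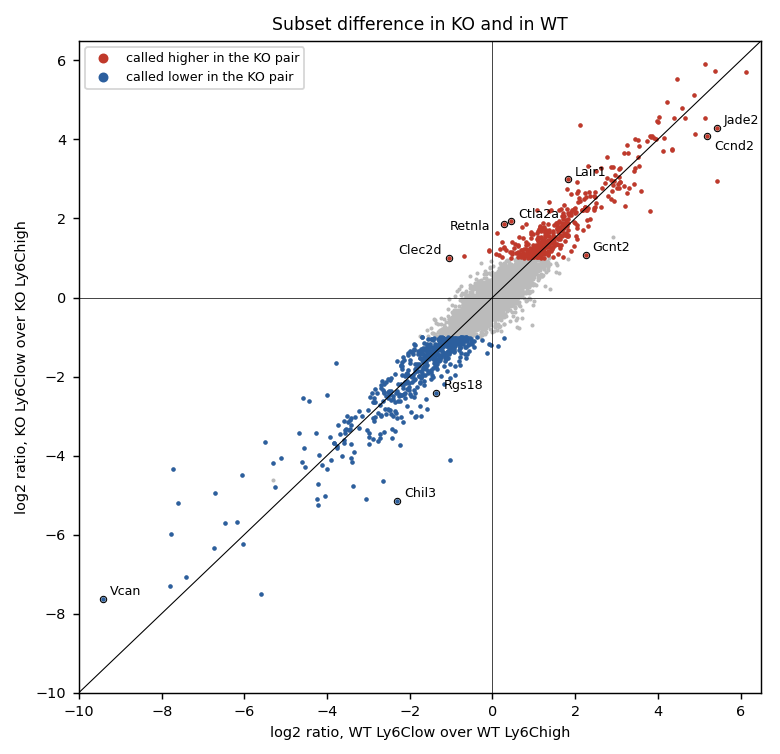
The log2 ratio of Ly6Clow over Ly6Chigh signals in the KO pair (vertical axis) against that in the WT pair (horizontal axis) for the 7263 genes kept in KO, coloured by call in the KO pair. The diagonal marks equal ratios. Most points follow it, and labels mark the 10 bright genes whose ratios differed most between genotypes, such as Chil3 below it and Clec2d above it.

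Probe sets of the same gene offered a check within the arrays. Genes called higher had 354 other Present probe sets, of which 337 had the same sign and 233 were also 2-fold higher, while 3 were 2-fold lower. Genes called lower had 419, of which 406 had the same sign and 295 were 2-fold lower, while 1 was 2-fold higher. Among 2915 genes with at least 2 Present probe sets at the signal minimum, the median SD of the log2 ratio within a gene was 0.18 and the 90th percentile 0.47. Wider ranges occurred among the named genes, as in Vcan, whose other 4 Present probe sets lay between -9.44 and -1.92, and Bcl2, whose other 4 lay between 1.54 and 3.37. The authors' deposited table gave a change call for the same pair of arrays, with its fold column running Ly6Chigh over Ly6Clow. Among the genes kept, the authors' deposited table called 1476 higher in KO Ly6Clow, 1939 lower and 3848 unchanged. Their calls shared the direction of 376 of the 384 higher and 516 of the 530 lower genes here, and 0 were opposite.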

How the data were processed

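The deposited signal intensities of 4 Affymetrix Mouse 430_2 arrays were used as the authors had made them. Per the labels' design text they used Expression Console 1.2.1, and the submitters' processing notes name GCOS. How the signals were summarised is not stated. The deposited file held a detection p-value and call beside each signal. For each pair of arrays it held the authors' signed fold, change call and score, and only the change calls entered here. A further deposited table was the same as the signals (0 of 180404 values differed).

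Of 45101 probe sets, 34958 had 1 gene symbol, 932 several and 9211 none. Symbols were updated through RefSeq (GRCm38.p6) for 34754. Each gene was represented by 1 probe set, the brightest on average across the 4 arrays. Log2 ratios had no offset. For a gene not Present on the dimmer array, the fold is a bound: the brighter signal divided by the dimmer one or, if higher, by the 95th percentile of that array's Absent signals (29.9 for KO Ly6Clow and 28.8 for KO Ly6Chigh). The additive model was fitted with limma 3.58.1 in R 4.3.3 after it had been tested on simulated data. Its error for a gene comes from the difference between the KO and WT subset ratios, drawn towards a value shared across genes (empirical Bayes). Its p-values thus do not measure the spread between pools or mice of a subset. No test was run over lists.

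Genes and the 35 lists were chosen with earlier results of these data known. Named genes were the 15 called genes with the largest ratio each way at a signal of at least 500 (without Gsn, which had a probe set at 2-fold in the other direction), the 6 largest called members per list (2 for other cell types and handling), 8 set genes, the 5 each way whose ratio differed most between genotypes, and those nearest the signal minimum.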

Additional observations from a re-analysis of the deposited data

Results flagged for a closer look

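Clec2d was the 1 gene called in both genotypes with opposite signs, and this difference between genotypes was not tested, since each group had 1 array. Its log2 ratio of Ly6Clow over Ly6Chigh was 1.01 in KO and -1.06 in WT. The 4 signals were 594.9 in KO Ly6Clow cells, 296.3 in KO Ly6Chigh cells, 477.1 in WT Ly6Clow cells and 993.9 in WT Ly6Chigh cells. The gene had no other Present probe set, and with an offset of 32 its KO ratio was 0.93, under the 2-fold rule. Because each group had 1 array, no sample could be checked for standing apart from its group.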

How the results depend on the processing

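With no signal minimum, 665 genes were called higher and 912 lower in KO Ly6Clow. With all probe sets in place of 1 per gene, the limma model called 2516 probe sets higher in Ly6Clow. The other planned settings (median centring, quantile normalization, an offset of 32, a signal minimum of 200, no Present call, other probe set rules, and for limma a variance trend, no genotype term or only genes Present on all 4 arrays) kept the counts within 1.5 times of the main ones. Of 127 named genes kept, 4 fell under the 2-fold rule with an offset of 32 (Bad, Casp6, Clec2d and Pfkl) and 4 with the mean of all Present probe sets (Cfp, Hpgd, Mcm3 and Pfkl), and 0 changed sign in any setting. The mean of all Present probe sets moved 3 list medians by over 0.25 (log2), those of cytokine genes, coagulation and matrix genes and MHC class II, the last to -1.31 as did the brightest probe set of the pair. The offset of 32 moved 3, the neutrophil median to -1.50, the B cell median to 1.12 and the dendritic cell median to -1.80. The genotype term of the limma model pairs the arrays by genotype, and without it 1301 genes were higher and 1493 lower. No paired analysis was possible within a genotype, because each group had 1 array. Leaving out an array would leave the additive model no residual degree of freedom, and this was not run. Signals near the floor of the arrays limit the size of the largest folds, and the red cell lysis buffer, the strain label and the genotype cannot be told apart between KO and WT.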

Other observations

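Called genes were spread over the range of signals. Among genes whose brighter KO signal was 100 to 200, 13.4% were called, and in the brightest class 15.5%. They were also spread over the chromosomes, with 3.02% (chromosome 8) to 7.02% (chromosome 6) of the genes kept called higher on the autosomes and 5.07% (chromosome 4) to 9.36% (chromosome 6) called lower. Besides Clec2d, 5 genes called in KO had the opposite sign in WT without a call there. Of these, Rps27, a ribosomal protein gene, had signals of 215.3 in KO Ly6Clow cells and 104.3 in KO Ly6Chigh cells, and of 115.9 in WT Ly6Clow cells and 185.7 in WT Ly6Chigh cells. The others were Iqce, Lncpint, Reep4 and Tcl1b3, with KO log2 ratios between -1.22 and 1.21, named after their values were seen.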
